A study of Mus musculus with 26 samples.

Results

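The mRNAs of histone variants, with H2afj at their head, were followed through RNA immunoprecipitation and sequencing of mouse brown fat. The set was named by gene symbol and holds 10 genes: H2afj, H2afv, H2afx, H2afy, H2afz, H3f3a, H3f3b, H1f0, Hist1h1c and Hist1h2bc. Of these, 8 had a row among the 9378 genes of the deposited tables, and H2afz and H3f3a were not analysed here. H2afj was chosen by its p-value for recovery that depends on IMP2, the smallest of its table, and the other members were named for comparison with it. Its values in the libraries that gave that p-value are therefore described below with no test, and it was tested in other libraries.

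IMP2, the product of Igf2bp2, binds RNA and escorts its target mRNAs in the cytoplasm. The deleted gene is absent from the rows of the knockout table, and its mRNA therefore gave no check of the genotype labels there. The groups were wild-type mice and IMP2 -/- mice, both on the C57Bl/6J background and bred from heterozygous parents. All were males of 10 weeks on normal chow that spent the night before collection at 4 °C. In brown fat, a tissue that burns fuel to make heat, cold switches on heat production. One table, called the knockout table, holds 8 libraries, with 2 each of wild-type total RNA, knockout total RNA, wild-type IMP2 immunoprecipitate and knockout IMP2 immunoprecipitate. The other, called the IgG table, holds 4 wild-type libraries: 2 of total RNA, 1 IMP2 immunoprecipitate and 1 immunoprecipitate made with nonspecific IgG. The knockout and the IgG immunoprecipitates both measure background recovery. The labels do not say whether libraries came from separate or pooled animals, so the spread behind each p-value is that between these libraries and may be technical.

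Histones wrap DNA into nucleosomes. The bulk, replicative histones are made while DNA is copied, from mRNAs that end in a stem-loop in place of a poly(A) tail, whereas most variant histones are made throughout the cell cycle from polyadenylated mRNAs. Variants then replace the bulk histones at particular places in the genome. H2afj encodes H2A.J, an H2A variant that differs from bulk H2A near its C-terminus and is known for building up in senescent cells. H2afv encodes a form of H2A.Z, found at promoters. H2afx encodes H2A.X, which is phosphorylated beside DNA breaks, and H2afy encodes macroH2A, which carries a large extra domain and is linked to silenced chromatin. H3f3b is one of the genes for H3.3, the histone H3 placed outside DNA replication. H1f0 encodes a linker histone of differentiated cells, and Hist1h1c and Hist1h2bc belong to the large histone gene cluster and encode a linker histone and an H2B.

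Gene positions are those of RefSeq on GRCm38.p6, the assembly that mm10, the build in the submitters' notes, is based on. H2afj (NM_177688, now called H2aj) spans chr6:136808248-136810074, which is 1827 bases. H2afv (NM_029938, now H2az2) lies at chr11:6427226-6444511 and H3f3b (NM_008211) at chr11:116021961-116026039. H2afx (NM_010436) lies at chr9:44334715-44336077 and H1f0 (NM_008197) at chr15:79028212-79030504. Hist1h1c (NM_015786, now H1f2) at chr13:23738807-23739531 and Hist1h2bc (NM_023422, now H2bc4) at chr13:23684199-23692480 lie in the same cluster. H2afy (now Macroh2a1) lies at chr13:56073622-56135626. It had 4 rows in the IgG table with nearly the same counts, of which NM_001159514 was used, and it was the sole member whose span overlapped another RefSeq gene, Gm31485. How reads that match several copies of a histone gene were assigned is not given in the sources used here, so values of members with close relatives are uncertain to that extent.

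Summed counts over named genes were 780333 to 4916160 per library in the knockout table (1189 genes) and 1321756 to 3750103 in the IgG table. The knockout table is a selected list, and levels below are CPM, counts scaled to a common library total over the genes of the same table, so they are not compared between tables. Its values of IMP2-dependent recovery end at log2 -0.30 on the low side, so an mRNA less well recovered with IMP2 than that is not in it. As a sum, brown adipocyte markers, Ucp1 among them, were abundant in every library. They summed to 36487 to 47466 CPM over 5 of 8 markers in the knockout table. Over 8 of 8 in the IgG table they summed to 21137 to 27003 CPM. Single markers were not all abundant, as Prdm16 had 7.96 to 21.7 CPM and Pparg 33.1 to 40.6 CPM in the latter. Dio2 differed between knockout libraries, with 58.3 and 523 CPM in total RNA (18 and 19). Knockout immunoprecipitates 23 and 24 had 90.1 and 697 CPM of it, and wild-type libraries beside them had 350 to 498 CPM. The cause was not tested. Skeletal muscle markers varied widely between libraries of a group and were lower in the knockout libraries as a sum. With edgeR 0 of 7 were called between genotypes, where 0% of the 1189 genes were. The 7 had medians of log2 -2.03 in knockout against wild-type total RNA and 2.26 in wild-type against knockout immunoprecipitates. Over 7 of 12 markers they summed to 2494 to 9824 CPM in wild-type and 550 to 2250 CPM in knockout total RNA, and to 1354 to 6340 CPM in wild-type and 315 to 1153 CPM in knockout immunoprecipitates. None of the 7 was at 0, and their part in the results below was not tested. In the IgG table all 12 muscle markers summed to 8824 and 16814 CPM in total RNA, 8520 CPM in the IMP2 and 5913 CPM in the IgG immunoprecipitate. Macrophage (3 of 7) and endothelial (5 of 6) markers had rows in the IgG table alone, at 20.3 to 42.2 and 206 to 276 CPM per library, and of 8 proliferation markers only Mki67 had a row, at 1.52 to 5.50 CPM.

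H2afj mRNA was lower in immunoprecipitates than in total RNA in both genotypes of the knockout table, and lowest where IMP2 was deleted. Total RNA of the wild type (libraries 16 and 17) gave 316 and 278 CPM, and that of the knockout (18 and 19) gave 260 and 270 CPM. After immunoprecipitation the level was 171 and 162 CPM in the wild type (21 and 22) and 75.5 and 96.6 CPM in the knockout (23 and 24). The immunoprecipitates of each genotype lay below all 4 total RNA libraries, and the knockout immunoprecipitates lay below both wild-type ones. These levels rest on 126 to 1275 counts per library. The 95% counting intervals of the knockout immunoprecipitates, 65.2 to 87.0 and 83.4 to 111 CPM, did not reach those of the wild-type ones, 148 to 197 and 135 to 193 CPM. Such intervals cover counting error only and leave out differences between libraries. Copies made of a molecule by PCR count as separate reads, so the intervals may be too narrow even for counting error. Because the choice of H2afj used these libraries, their separation is a description and no test.

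**Figure D1:**
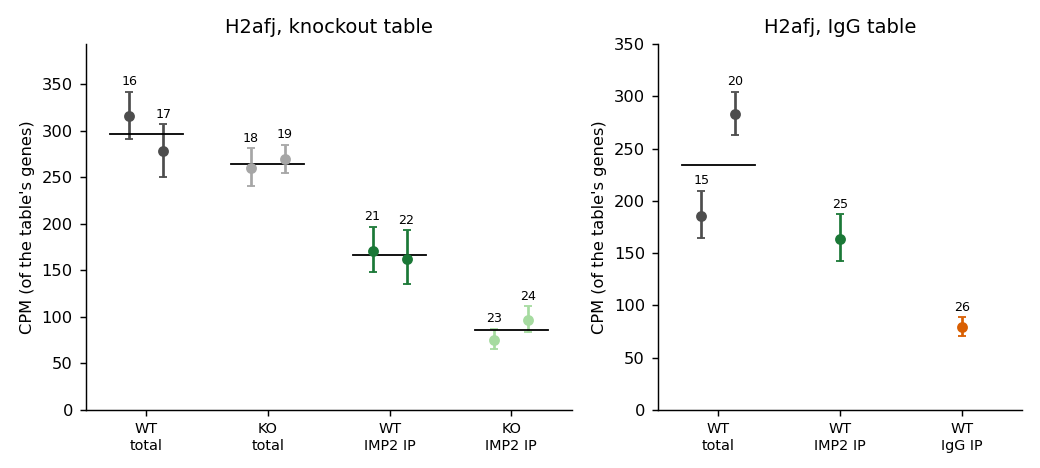
H2afj level per library in CPM of the genes of each table (left, knockout table; right, IgG table), with points for libraries labelled by number, bars for 95% counting intervals and lines for group means where a group has 2 libraries. On the left, wild-type IMP2 immunoprecipitates (IP) stand at 162 and 171 CPM and the knockout ones at 75.5 and 96.6 CPM. On the right, on a scale of its own, the IgG immunoprecipitate stands at 79.4 CPM and the IMP2 one at 163 CPM.

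Against total RNA, H2afj was at log2 -0.83 ± 0.15 (SE, n = 2 per group) in the wild type and at log2 -1.63 ± 0.15 in the knockout. Mean levels were 297 ± 27.1 CPM in total RNA and 167 ± 6.44 CPM after immunoprecipitation for the wild type (SD, n = 2), against 265 ± 6.67 CPM and 86.1 ± 14.9 CPM for the knockout. In the knockout comparison 11 of the 1189 genes had lower values, whereas in the wild type 5.21% of genes did. The difference of these ratios, the IMP2-dependent recovery, was log2 0.79 ± 0.21, a 1.73-fold higher recovery in the wild type. This is the value by which H2afj was chosen, and 1 gene of the table had a higher one. Leaving out knockout immunoprecipitate 23 moved it to log2 0.58. No gene passed an adjusted p of 0.05 for this measure with edgeR (0% of 1189 genes), DESeq2 or limma-voom, and 29 had an unadjusted p under 0.05 with edgeR.

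In total RNA both knockout libraries lay just below the wild-type ones, at log2 -0.17 ± 0.14 (SE). In bulk tissue, fewer cells of a type and less RNA per cell cannot be told apart. Directly between immunoprecipitates, the wild type stood above the knockout by log2 0.96 ± 0.15, which is 1.94-fold. With edgeR 0% of 1189 genes passed in either of these comparisons, against 132 and 211 at an unadjusted p under 0.05, none with limma-voom, and 35 and 93 with DESeq2.

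The other members of the knockout table had values near 0. H2afv, the H2A.Z form, was at 191 and 206 CPM in wild-type total RNA, 193 and 180 CPM in wild-type immunoprecipitates, 221 and 201 CPM in knockout total RNA, and 212 and 188 CPM in knockout immunoprecipitates. All its groups overlapped except the wild-type immunoprecipitates and the knockout total RNA. Its recovery against total RNA was log2 -0.09 ± 0.13 in the wild type (SE, n = 2 per group, adjusted p = 0.656, edgeR) and -0.07 ± 0.12 in the knockout (adjusted p = 0.695). Its IMP2-dependent recovery was log2 -0.01 ± 0.18 (adjusted p = 0.999).

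H3f3b, an H3.3 gene, stood at 118 and 150 CPM in wild-type and 122 and 173 CPM in knockout total RNA, and at 125 and 130 CPM in wild-type and 132 and 147 CPM in knockout immunoprecipitates. Each immunoprecipitate fell within the range of the total RNA libraries of its genotype. Recovery was log2 -0.07 ± 0.22 in the wild type (adjusted p = 0.821, edgeR) and -0.09 ± 0.20 in the knockout (adjusted p = 0.759), and the IMP2-dependent part was 0.02 ± 0.29 (adjusted p = 0.999).

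Hist1h1c, the linker histone of the cluster, varied most between libraries of a group. It stood at 317 and 363 CPM in wild-type and 234 and 338 CPM in knockout total RNA, and at 361 and 253 CPM in wild-type and 257 and 357 CPM in knockout immunoprecipitates. The immunoprecipitates of the genotypes covered nearly the same range. Recovery was log2 -0.14 ± 0.25 in the wild type (adjusted p = 0.716, edgeR) and 0.10 ± 0.24 in the knockout (adjusted p = 0.804), and the IMP2-dependent part was -0.23 ± 0.35 (adjusted p = 0.999), near the lower end of the table.

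**Figure D2:**
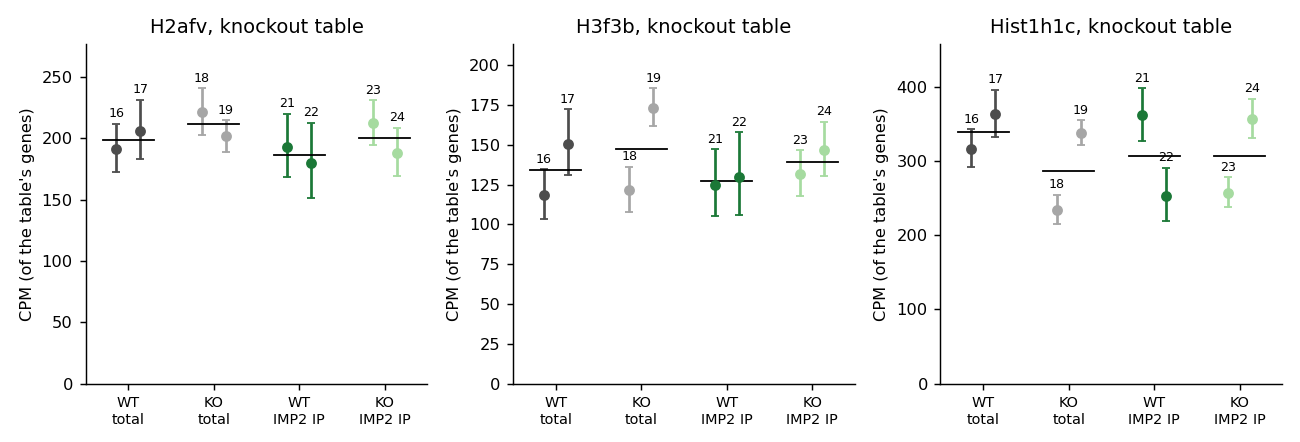
Levels of H2afv, H3f3b and Hist1h1c in the 8 libraries of the knockout table, in CPM, with points for libraries, bars for 95% counting intervals and lines for group means. Immunoprecipitates (IP) lie at the level of total RNA, as for H3f3b with 125 to 147 CPM against 118 to 173 CPM.

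Of the 3 members other than H2afj, none was called in either comparison of immunoprecipitate with total RNA, where 22.4% of the 1189 genes were called in the wild type and 26.3% in the knockout. None was called between immunoprecipitates, at log2 -0.10 for H2afv, -0.13 for H3f3b and 0.01 for Hist1h1c (adjusted p = 0.693, 0.764 and 0.989, edgeR). In total RNA the knockout differed from the wild type by log2 0.09, 0.15 and -0.24 in the same order (adjusted p = 0.818, 0.805 and 0.744). The SEs of these values were 0.12 to 0.25, and differences of that size or somewhat larger could not be resolved.

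Counted against the other members within the same library, which needs no scaling, H2afj kept its order in the knockout table. Per 100 counts of H2afv, H3f3b and Hist1h1c together, total RNA held 50.5 and 38.6 counts of H2afj in the wild type and 45.1 and 37.8 in the knockout. Immunoprecipitates held 25.2 and 28.8 in the wild type and 12.6 and 14.0 in the knockout. By value, the lowest total RNA library, the wild-type immunoprecipitates and the knockout immunoprecipitates thus formed steps that did not overlap. The 95% intervals of wild-type immunoprecipitate 22 (23.4 to 35.1) and total RNA 17 (34.3 to 43.5) did overlap. These libraries gave the measure that chose H2afj, so the steps are a description and no test. In the IgG table the order was not kept. Total RNA held 57.8 and 107.5 counts, the IMP2 immunoprecipitate 69.3, between the total RNA libraries, and the IgG immunoprecipitate 47.7. The IgG value was the lowest, with a 95% interval of 41.6 to 54.5 that overlapped that of total RNA 15 (49.5 to 67.4). The ratio shows unequal change between H2afj and the other members and does not say which of them moved.

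A set of 8 cytosolic ribosomal protein mRNAs was taken as a reference for poorly recovered messages, chosen with earlier results known. Their fall in the immunoprecipitates of both genotypes is therefore a description and no test. Of the 8, 7 fell in the wild type (12.4% of all genes fell) and 8 in the knockout (15.7%). The 8 had medians of log2 -1.61 and -1.66, where all genes had medians of 0.01 and -0.01. Their IMP2-dependent recovery ran from log2 -0.20 for Rpl26 to 0.19 for Rpl32, with a median of -0.01 (no member called). H2afj, chosen by this measure, was at 0.79, so the contrast is a description and no test. In IMP2 against IgG, from the other table, the 8 mRNAs had a median of log2 0.31. There 7 of 8 were above 0 and none was called, and H2afj was at 1.04.

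The IgG table gave H2afj values from libraries that its choice did not use. In wild-type total RNA it stood at 186 and 284 CPM (libraries 15 and 20), in the IMP2 immunoprecipitate at 163 CPM (25) and in the IgG immunoprecipitate at 79.4 CPM (26), on 208 to 748 counts. The IgG library was the lowest, and its 95% counting interval of 71.0 to 88.5 CPM did not reach the interval of the IMP2 library, 142 to 187 CPM. The total RNA libraries differed from each other by more than counting error. H2afj fell in the IgG immunoprecipitate against total RNA by 1.57 on the log2 scale (SE 0.43, adjusted p = 0.0196, edgeR), and it was lower than in both total RNA libraries. Of 8966 genes 1.52% fell in that comparison. DESeq2 ended the call, at log2 -1.57 and an adjusted p of 0.0978, and over the other alternatives with a test, all within the IgG table, the adjusted p was 0.0114 to 0.0465. The group has a single IgG library, whose spread is assumed to be that of the total RNA libraries. Without total RNA 20 the value was -1.22 and without total RNA 15 it was -1.84, with no test.

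Between the IMP2 and the IgG immunoprecipitates, H2afj was 2.06-fold higher with IMP2 (95% counting interval 1.72 to 2.46), or log2 1.04 ± 0.47 (SE, 1 library each). With an adjusted p of 0.705 by edgeR it did not pass (unadjusted p = 0.0267), as 0.0558% of genes did in that direction, and over the alternatives within the IgG table the adjusted p was at least 0.658. Of all genes tested there, 95.1% had lower values of this ratio. Against total RNA the IMP2 immunoprecipitate was at log2 -0.53 ± 0.41 (adjusted p = 0.823). Without total RNA 20 it was -0.18 and without total RNA 15 it was -0.78, with no test. A fit of both tables together, which includes libraries used to choose H2afj and is therefore given with no test, put it at log2 -0.76.

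**Figure D3:**
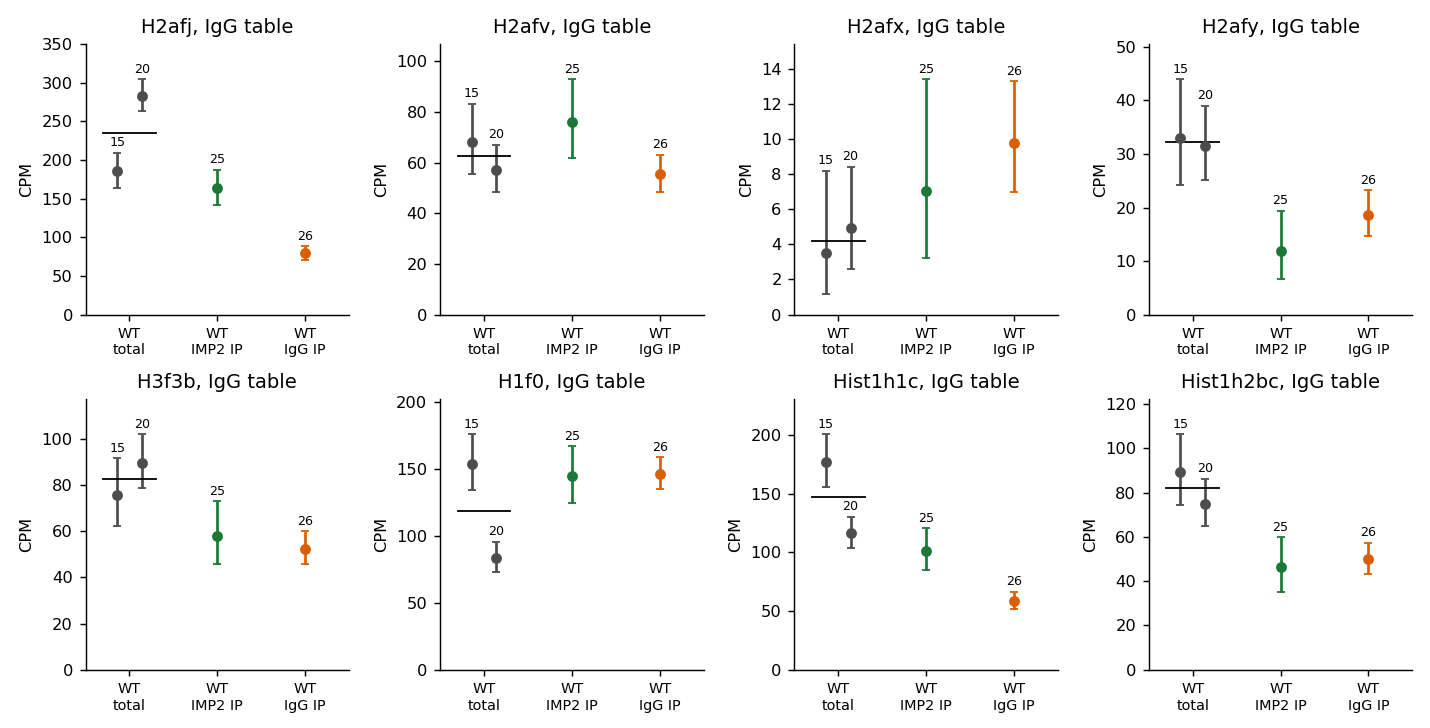
Levels of the 8 members in the 4 wild-type libraries of the IgG table, in CPM (axes differ between panels), with points for libraries, bars for 95% counting intervals and a line for the mean of the total RNA libraries. H2afj, Hist1h1c, H3f3b and H2afv are lowest with IgG (79.4, 58.6, 52.5 and 55.4 CPM), though for H3f3b and H2afv its interval overlaps those of other libraries. Hist1h2bc and H2afy are lowest with IMP2 (46.4 and 11.8 CPM), and H2afx is highest with IgG (9.77 CPM). H1f0 has 147 CPM with IgG against 83.8 and 154 CPM in total RNA.

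Of the other members, Hist1h1c came nearest to H2afj in the IgG table. It had 177 and 117 CPM in total RNA, 101 CPM with IMP2 and 58.6 CPM with IgG, so both immunoprecipitates lay below total RNA and IgG lay lowest. The IgG value against total RNA was log2 -1.32 ± 0.43 (SE, adjusted p = 0.0779, edgeR), and -1.06 with an adjusted p of 0.0489 when both tables were fitted together. The joint fit adjusted over the 1189 genes of both tables, in place of 8966. IMP2 stood 1.73-fold above IgG by counts (1.38 to 2.15), or log2 0.79 ± 0.48 (adjusted p = 0.832). In the knockout table this mRNA had no such low background, at log2 0.10 in the knockout immunoprecipitate.

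H3f3b had 76.0 and 89.8 CPM in total RNA, 58.1 CPM with IMP2 and 52.5 CPM with IgG. Both immunoprecipitates were below total RNA and close to each other, with a fold of 1.11 by counts (0.838 to 1.45). The log2 ratios to total RNA were -0.52 ± 0.44 with IMP2 (adjusted p = 0.853, edgeR) and -0.66 ± 0.43 with IgG (adjusted p = 0.499).

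Hist1h2bc, the H2B of the cluster, followed a similar course, from 89.3 and 75.0 CPM in total RNA to 46.4 CPM with IMP2 and 50.1 CPM with IgG. Its ratios to total RNA were log2 -0.82 ± 0.46 (adjusted p = 0.683, edgeR) and -0.71 ± 0.43 (adjusted p = 0.457), and IMP2 against IgG was 0.926-fold by counts (0.681 to 1.24).

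The H2A.Z form H2afv had 68.2 and 57.2 CPM in total RNA, 76.2 CPM with IMP2 and 55.4 CPM with IgG. IMP2 stood 1.37-fold above IgG by counts (1.07 to 1.75), and in the model the difference was log2 0.46 ± 0.49 (adjusted p = 0.943, edgeR). Linker histone H1f0 had 154 and 83.8 CPM in total RNA, 145 CPM with IMP2 and 147 CPM with IgG. Both immunoprecipitates lay between the total RNA libraries, and IMP2 against IgG was 0.986-fold (0.832 to 1.17).

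MacroH2A and H2A.X rested on few counts. H2afy had 33.1 and 31.5 CPM in total RNA, 18.6 CPM with IgG and 11.8 CPM with IMP2, the last from 15 counts. Its ratio to total RNA was log2 -1.45 ± 0.60 with IMP2 (adjusted p = 0.399, unadjusted p = 0.0157, edgeR) and -0.79 ± 0.51 with IgG (adjusted p = 0.492). H2afx had 5 to 40 counts, which gave 3.52 and 4.93 CPM in total RNA, 7.07 CPM with IMP2 and 9.77 CPM with IgG. Its interval of IMP2 over IgG ran from 0.309 to 1.52-fold, and no difference could be detected with so few counts.

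**Figure D4:**
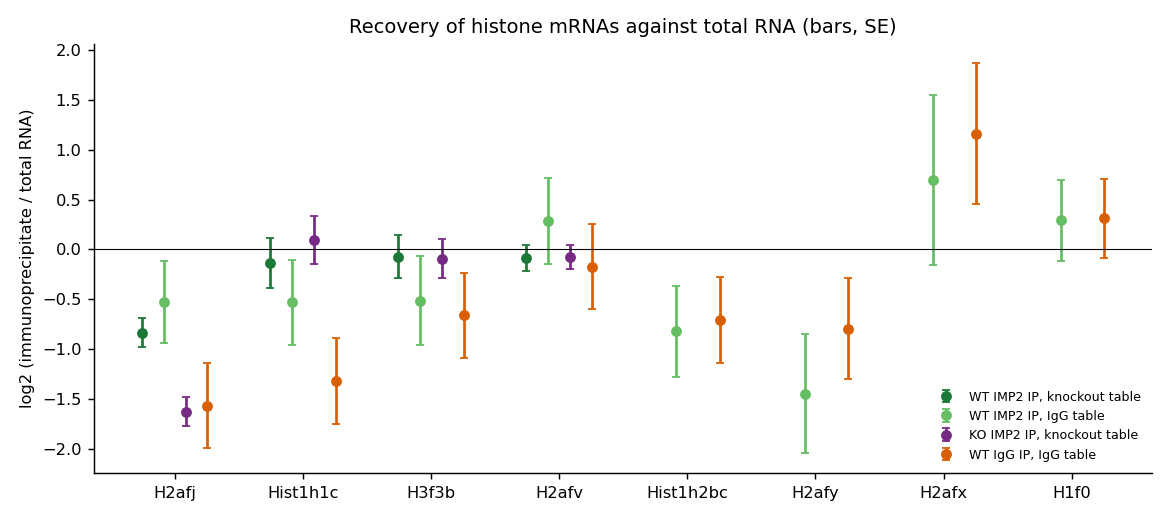
Log2 ratio of each immunoprecipitate (IP) to total RNA for the 8 members, with SE bars from the edgeR models (4 members have values from both tables, the others from the IgG table). H2afj lies at log2 -1.63 in the knockout and -1.57 in the IgG background, and at -0.83 and -0.53 with IMP2 present.

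In the IgG table, 1 of 8 members, H2afj, was called in IgG against total RNA with edgeR but not with DESeq2, from a single IgG library, where 2% of genes were called in either direction. None was called with IMP2 against total RNA (0.903% of genes) or against IgG (0.234%). The medians over the 8 members were log2 -0.69 for IgG and -0.52 for IMP2 against total RNA and 0.06 for IMP2 against IgG, where the medians of all genes were -0.01, -0.03 and -0.01. Library-size scaling moved the median of all genes for IMP2 against IgG to log2 -0.19, and under it H2afj was at 0.86.

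The knockout and IgG backgrounds share no library, and H2afj stood at log2 -1.63 and -1.57 in them, the first of which enters the measure that chose it. The medians of the 1189 genes of both tables were -0.01 and -0.17. Among these genes, 11 had a lower value in the knockout background, 21 had a lower value in the IgG background and 8 were at or below H2afj in both. The remaining members were apart from it, with H2afv at -0.07 and -0.17, H3f3b at -0.09 and -0.66 and Hist1h1c at 0.10 and -1.32. Over these genes the backgrounds had a Pearson r of 0.701, given as a description, since genes are not independent and share the depth of their libraries.

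**Figure D5:**
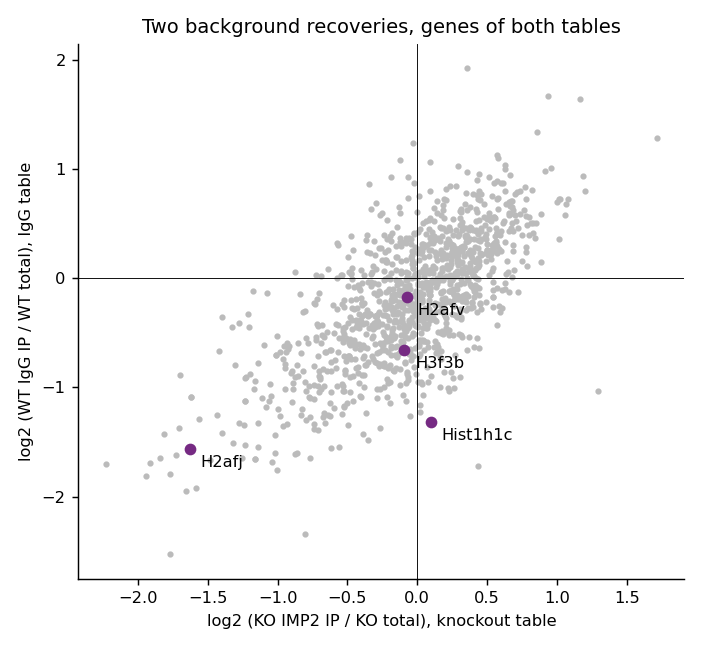
Log2 ratio to total RNA of the knockout IMP2 immunoprecipitate (x axis, knockout table) and of the wild-type IgG immunoprecipitate (y axis, IgG table) for the 1189 genes of both tables, with the 4 members that both list named. H2afj sits at the low end of both axes, and Hist1h1c is low on the IgG axis alone.

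Predicted genes, those with Gm, Rik or LOC symbols, were left out of the search for genes like H2afj. Of the rest, Tmem160, Nkx6-2, Csnk1g2, Map2k2 and Mrpl54 were most like H2afj in log2 CPM over the 8 libraries of the knockout table. Their Pearson r over these libraries was 0.949 to 0.959, at ranks 2 to 6 among all genes. These libraries share depth and scaling between genes. They also gave the wild-type, knockout and IMP2-dependent values below, so likeness to H2afj in those values is a description and no test. Tmem160 had a wild-type and knockout recovery of log2 -0.60 and -1.25 and an IgG recovery of -1.65, and Mrpl54, a mitochondrial ribosomal protein, had -0.25, -0.89 and -1.02. Nkx6-2 had -0.38 and -0.53, an IMP2-dependent part of only 0.15, and an IgG recovery of -1.17. The kinases Csnk1g2 (-0.26, -0.84 and -0.14) and Map2k2 (-0.34, -0.73 and -0.54) were not as low with IgG. In IMP2 against IgG the 5 genes had log2 values of 0.45 to 1.02. The other histone members were far from the pattern, with r of 0.11 for H2afv, 0.02 for H3f3b and 0.15 for Hist1h1c.

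Of 77 further histone genes looked for, 8 had a row in the IgG table and none in the knockout table. With edgeR 0 of 8 were called in IgG against total RNA (2% of all genes), IMP2 against total RNA (0.903%) or IMP2 against IgG (0.234%). A count of 0 is near those shares and does not set the 8 genes apart. The centromeric H3 variant Cenpa, the macroH2A paralogue H2afy2 and the linker histone H1fx were among them. The other 5 were Hist3h2a, Hist1h4h, Hist1h4i, Hist2h2be and Hist2h3c1. All genes had a median of log2 -0.01 in IgG against total RNA and also in IMP2 against IgG. The 8 had medians of -0.55 and 0.65, with 7 of 8 above 0 in the latter, at counts of 7 to 186. The exception was the H2B gene Hist2h2be, at log2 -0.46 ± 0.56 (adjusted p = 0.943, edgeR). The smallest unadjusted p in IgG against total RNA was that of the H4 gene Hist1h4h, at log2 -1.19 ± 0.57 (unadjusted p = 0.0364, adjusted p = 0.306), the sole one of the 8 under 0.05 in these comparisons.

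Of 55 histone chaperones and variant exchange factors looked for, 41 had a row in the IgG table and 2 in the knockout table. Their medians were log2 0.34 for IgG against total RNA and -0.40 for IMP2 against IgG, where 10 of 41 were above 0. Ncl, the nucleolar protein nucleolin, rose with IgG against total RNA by log2 1.55 ± 0.38 (adjusted p = 0.00717, edgeR), as 0.48% of genes did, and no other gene of the list was called in the IgG table. DESeq2 ended that call (adjusted p = 0.0925). Ubn2, a subunit of the complex that places H3.3, was at log2 -1.69 ± 0.54 in IMP2 against total RNA (adjusted p = 0.121). Znhit1, a subunit of the SRCAP complex that exchanges H2A for H2A.Z, fell in the knockout immunoprecipitate against total RNA by 0.41 on the log2 scale (SE 0.12, adjusted p = 0.0303, edgeR). That call ended with library size alone (adjusted p = 0.0859), with upper-quartile scaling (-0.25, adjusted p = 0.119) and without any 1 of the 4 knockout libraries or wild-type total RNA 17 (adjusted p = 0.055 to 0.203). Anp32a, of the family of the H2A.Z chaperone Anp32e, was at 0.27 ± 0.13 there (adjusted p = 0.154).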

How the data were processed

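The authors deposited read counts per RefSeq transcript as whole numbers, with no scaling, per the file headers. Per the submitters' processing notes, TopHat2 2.0.8, Cufflinks 2.1.1 and mm10 were used. The counting tool is not given in the sources used here, nor is the rule by which transcripts were listed. Of 26 samples the 12 brown fat libraries were used and the 14 of liver were not. Transcripts without a symbol were named by accession from RefSeq, and 3 and 22 left unnamed, with 7.39 to 29.2% of the counts per library, were kept out. The row with the highest summed count was kept per symbol. The main test was the edgeR 4.0.16 quasi-likelihood test (R 4.3.3) on TMM-scaled counts, after its filter on low counts (1189 and 8966 genes tested), with Benjamini-Hochberg adjustment over all genes and a threshold of 0.05. Models had 4 and 1 residual degrees of freedom. Alternatives used DESeq2 1.42.0, limma 3.58.1 (voom), other scalings, no filter, summed rows, both tables together on the genes they share, and each library left out. Code was tested on simulated data. Members and lists were chosen with earlier results of these data known. Named genes were the members, the 5 most like H2afj (prior count 2, predicted genes left out), and up to 4 per list by smallest p.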

Additional observations from a re-analysis of the deposited data

How the results depend on the processing

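H2afj kept its direction in all 8 comparisons under the alternatives run for each, with IMP2-dependent recovery at log2 0.58 to 0.96, knockout recovery at -1.79 to -1.41 and IMP2 over IgG at 0.69 to 1.06. Its fall with IgG missed the threshold with DESeq2, at log2 -1.57. No paired analysis was possible because the sample numbers in the labels are all different, and the models took every library as independent. Acta1, a muscle marker, was lower in total RNA 16 than 17 (670 and 1934 CPM) and 18 than 19 (129 and 533 CPM), and in immunoprecipitate 21 than 22 (177 and 456 CPM) and 23 than 24 (38.3 and 136 CPM). Whether such libraries share tissue is not given in the sources used here and was not tested. The number of genes called rested on the method. DESeq2 called 35 genes in knockout against wild-type total RNA and 93 between immunoprecipitates, where edgeR called 0, and in the IgG table it called 44 for IgG against total RNA (179 with edgeR), 22 for IMP2 against total RNA (81) and 4 for IMP2 against IgG (21). Voom gave 47 for IMP2 against total RNA, and library size alone 32 for IMP2 against IgG. Both tables together gave 281 for IgG and 339 for IMP2 against total RNA. That fit held only the 1189 genes they share, in place of 8966, so its counts come from a smaller set. Leaving out libraries gave 93 to 260 genes in wild-type recovery (lowest without total RNA 16), 135 to 323 in knockout recovery (lowest without immunoprecipitate 24) and 0 to 1 between immunoprecipitates. Leaving out a total RNA library of the IgG table left no spread to test with. Upper-quartile scaling moved the median of all genes to log2 0.15 and 0.16 in wild-type and knockout recovery, with 214 higher and 94 lower and 273 higher and 130 lower genes, against 118 and 148 and 126 and 187 with TMM. Library size alone gave 157 and 119, and 246 and 145. For IgG against total RNA 51.8% of calls were higher with library size alone and 34.7% with upper-quartile scaling, against 24.0% with TMM.

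Values of the other members near 0 changed sign and passed no threshold. With upper-quartile scaling, wild-type recovery was 0.060 for H2afv, 0.073 for H3f3b and 0.014 for Hist1h1c, knockout recovery 0.092 for H2afv and 0.073 for H3f3b, IMP2-dependent recovery -0.00014 for H3f3b, and Hist1h1c between immunoprecipitates -0.042. With library size alone, knockout recovery was 0.055 for H2afv and 0.035 for H3f3b, IMP2-dependent recovery -0.044 for H3f3b, Hist1h1c between immunoprecipitates -0.041, and H3f3b in IMP2 over IgG -0.034. With summed rows H1f0 in IMP2 over IgG was 0.0012. Leaving out libraries gave ranges that cross 0. In wild-type recovery they were -0.24 to 0.10 (H3f3b) and -0.43 to 0.090 (Hist1h1c), and in knockout recovery -0.14 to 0.029 (H2afv), -0.29 to 0.19 (H3f3b) and -0.14 to 0.39 (Hist1h1c). In IMP2-dependent recovery they were -0.11 to 0.055 (H2afv), -0.27 to 0.22 (H3f3b) and -0.54 to 0.0063 (Hist1h1c). Between immunoprecipitates Hist1h1c ran from -0.30 to 0.25, and between total RNA groups H3f3b ran from -0.14 to 0.37. For H1f0 the values were -0.062 and 0.80 with IgG and -0.090 and 0.80 with IMP2. The cause of these changes was not tested.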
